A study of Homo sapiens with 24 samples.

Results

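DANCR and 9 further long noncoding RNAs (lncRNAs) that carry small nucleolar RNAs (snoRNAs) in their introns were followed across an interferon and BOP1 depletion experiment: GAS5, SNHG1, SNHG5, SNHG6, SNHG8, SNHG12, SNHG15, SNHG16 and ZFAS1. They are 10 of the 60609 gene rows of the expression table, found by gene symbol, and all 10 were among the 16062 genes tested. The set was chosen with IFN values of these same libraries known, DANCR having been selected on its low level under IFN. The IFN changes of the 10 genes are therefore given as a description without a test, and tests are given for the BOP1 siRNA effect and for interactions. Other earlier results of these data were also known at the choice, so these tests are not independent of that knowledge.

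The cells were A549, an established human lung adenocarcinoma line that is widely used because it responds to interferon. They received a pool of siRNAs against BOP1 (siBOP1), a factor for maturation of the large ribosomal subunit, or an siRNA against firefly luciferase (siFLuc), which has no target in human cells. The transfection lasted 48 h, and cells of each kind were mock treated or received 1000 U/mL of interferon beta, a type I interferon (IFN in what follows), with harvests at 8 h and 12 h. The 8 groups were thus siFLuc mock, siFLuc IFN, siBOP1 mock and siBOP1 IFN at each of the 2 times, with 3 libraries a group and 24 in all, so every group shares the transfection, and the depletion by a pool is partial. Library preparation used an mRNA kit that keeps strand, and values are in TPM, a length-corrected share of a fixed total.

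snoRNAs are short RNAs that guide chemical changes of ribosomal RNA. Most human snoRNAs are cut from introns of a host gene, so that splicing of the host releases both the snoRNA and a spliced exon RNA, and only the exon RNA carries a poly(A) tail. Many host lncRNAs begin with a pyrimidine run like that of ribosomal protein mRNAs (a 5′ terminal oligopyrimidine, or TOP, start), are loaded on ribosomes through short reading frames, and are degraded by nonsense-mediated decay, a pathway that depends on translation. GAS5 is the best-known example, and took its name from its accumulation in growth-arrested cells. DANCR is known for holding progenitor cells in an undifferentiated state, and ZFAS1 is named for its position antisense to ZNFX1.

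RefSeq start regions (GRCh38.p14) were at hand for 8 of the 10 genes, and 6 of the 8 held a pyrimidine run, here a C followed by at least 4 C or T letters that begins within 10 bases of the annotated start. The same run was found in 33.5% of the 35116 promoters of the table. The 50 bases from 20 before to 30 after the start are printed for the 6 genes with such a run and for SNHG1, which had none. A run found in this way need not begin at the start, so it does not by itself mark a TOP start. Capitals mark the pyrimidine run on the strand of the gene.
DANCR: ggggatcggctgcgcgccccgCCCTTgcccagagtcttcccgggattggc
SNHG5: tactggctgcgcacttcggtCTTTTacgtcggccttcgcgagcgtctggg
SNHG8: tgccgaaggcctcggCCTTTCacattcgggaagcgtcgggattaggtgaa
SNHG12: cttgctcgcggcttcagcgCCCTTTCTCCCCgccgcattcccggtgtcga
SNHG16: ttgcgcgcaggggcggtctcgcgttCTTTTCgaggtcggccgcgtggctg
ZFAS1: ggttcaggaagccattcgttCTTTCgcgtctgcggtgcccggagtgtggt
SNHG1: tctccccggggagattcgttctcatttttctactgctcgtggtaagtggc
These windows lie at chr4:52712374-52712423 (plus strand) for DANCR, chr6:85678704-85678753 (minus) for SNHG5, chr4:118278742-118278791 (plus) for SNHG8, chr1:28581844-28581893 (minus) for SNHG12, chr17:76557744-76557793 (plus) for SNHG16, chr20:49278622-49278671 (plus) for ZFAS1 and chr11:62855856-62855905 (minus) for SNHG1. In SNHG5 and ZFAS1 the run began at the annotated start itself, and in DANCR at its second base. In SNHG8 and SNHG12 it began before the start (positions -5 and -1), and in SNHG16 at position 6. Of the 6 genes with a run, 4 (SNHG5, SNHG8, SNHG16 and ZFAS1) also passed the test of the BOP1 siRNA effect described further on, while DANCR and SNHG12 did not. Of all 10 members 6 passed it downwards, beside 6.91% of all genes. Among them were GAS5 and SNHG15, the latter without a start region at hand. A link between the run and the siRNA effect was not tested. GAS5 had no run at its RefSeq start, but that start lies upstream of the GENCODE 29 gene, and its window is not printed.

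The promoter of DANCR (chr4:52712144-52712443, plus strand, 250 bases before to 50 after the start) is shown whole because DANCR stands apart from the other members under IFN. Capitals mark the letters CCAAT or, on the other strand, ATTGG, the core of the element bound by the factor NF-Y.
DANCR promoter: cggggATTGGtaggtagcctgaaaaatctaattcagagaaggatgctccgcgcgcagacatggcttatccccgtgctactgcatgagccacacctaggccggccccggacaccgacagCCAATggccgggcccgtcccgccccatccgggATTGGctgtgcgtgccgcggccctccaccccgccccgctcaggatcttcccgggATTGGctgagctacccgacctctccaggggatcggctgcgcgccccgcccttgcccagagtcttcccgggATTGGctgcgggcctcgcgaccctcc
It held 5 matches over both strands, as many as or more than which were found in 0.359% of promoters of that length, while 34.6% held at least 1. The motif was looked at after the sequence had been read. Of the 8 members, 3 held a match (DANCR, GAS5 and SNHG5). No member promoter held the interferon-stimulated response element, searched on both strands as a pair of GAAA with 2 bases between them, which 3.57% of promoters held, and none held the E-box CACGTG, held by 7.26%. A match is a description of letters and not of a bound site.

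The library check was as follows. BOP1 itself stood at 66.4 ± 10.7 TPM (SD, n = 3) in siFLuc mock 8 h libraries and 18.6 ± 0.750 TPM in siBOP1 mock 8 h libraries, and its mean with siBOP1 was between 23.5% and 29.6% of its siFLuc mean in the 4 comparisons. IFIT1, an antiviral protein made on interferon signalling, went from 1.77 to 2.14 TPM in the mock means to between 1034 and 1392 TPM in the IFN means. Of the 6 epithelial markers, keratins 7, 8 and 18 reached at least 1162 TPM in every library. KRT19 (62.5 to 161 TPM) and CDH1 (23.8 to 105 TPM) were lower. EPCAM stood at 1.92 to 5.48 TPM, near CD14 (1.81 to 5.26 TPM) and not above COL1A1 (5.37 to 19.3 TPM). The 8 leukocyte, stromal and endothelial markers summed to between 7.25 and 23.1 TPM, and only CD14 and COL1A1 passed the filter. CD3E was at 0 in all 24 libraries and PTPRC in 20 of them. The 8 libraries numbered 4, 1 per group, carry a number that the labels do not give. At 12 h they stood apart: Pearson r of log2(TPM + 1) across genes with the others of their group was 0.961 to 0.977, against 0.985 to 0.988 between the libraries numbered 1 and 2. Values at 12 h are given below with and without them where they matter. Replicates are not stated to be separate cultures, so p-values measure the spread between these libraries. Sequencing depth is unknown from TPM. In bulk RNA, fewer cells of a state and less RNA per cell cannot be told apart.

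The 10 host genes covered a wide range of levels on the TPM scale. SNHG5 was the highest, from 406 to 892 TPM with a median of 591 TPM over the 24 libraries, followed by ZFAS1 (285 to 758, median 457), GAS5 (182 to 352, median 238) and SNHG6 (191 to 289, median 237). SNHG8 (median 97.5), SNHG16 (89.4) and SNHG1 (80.4) lay in the middle. DANCR (6.53 to 68.3, median 30.2), SNHG15 (16.1 to 47.3, median 27.4) and SNHG12 (12.3 to 39.5, median 22.9) were the lowest. Across libraries DANCR varied the most in proportion and SNHG6 the least.

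**Figure D1:**
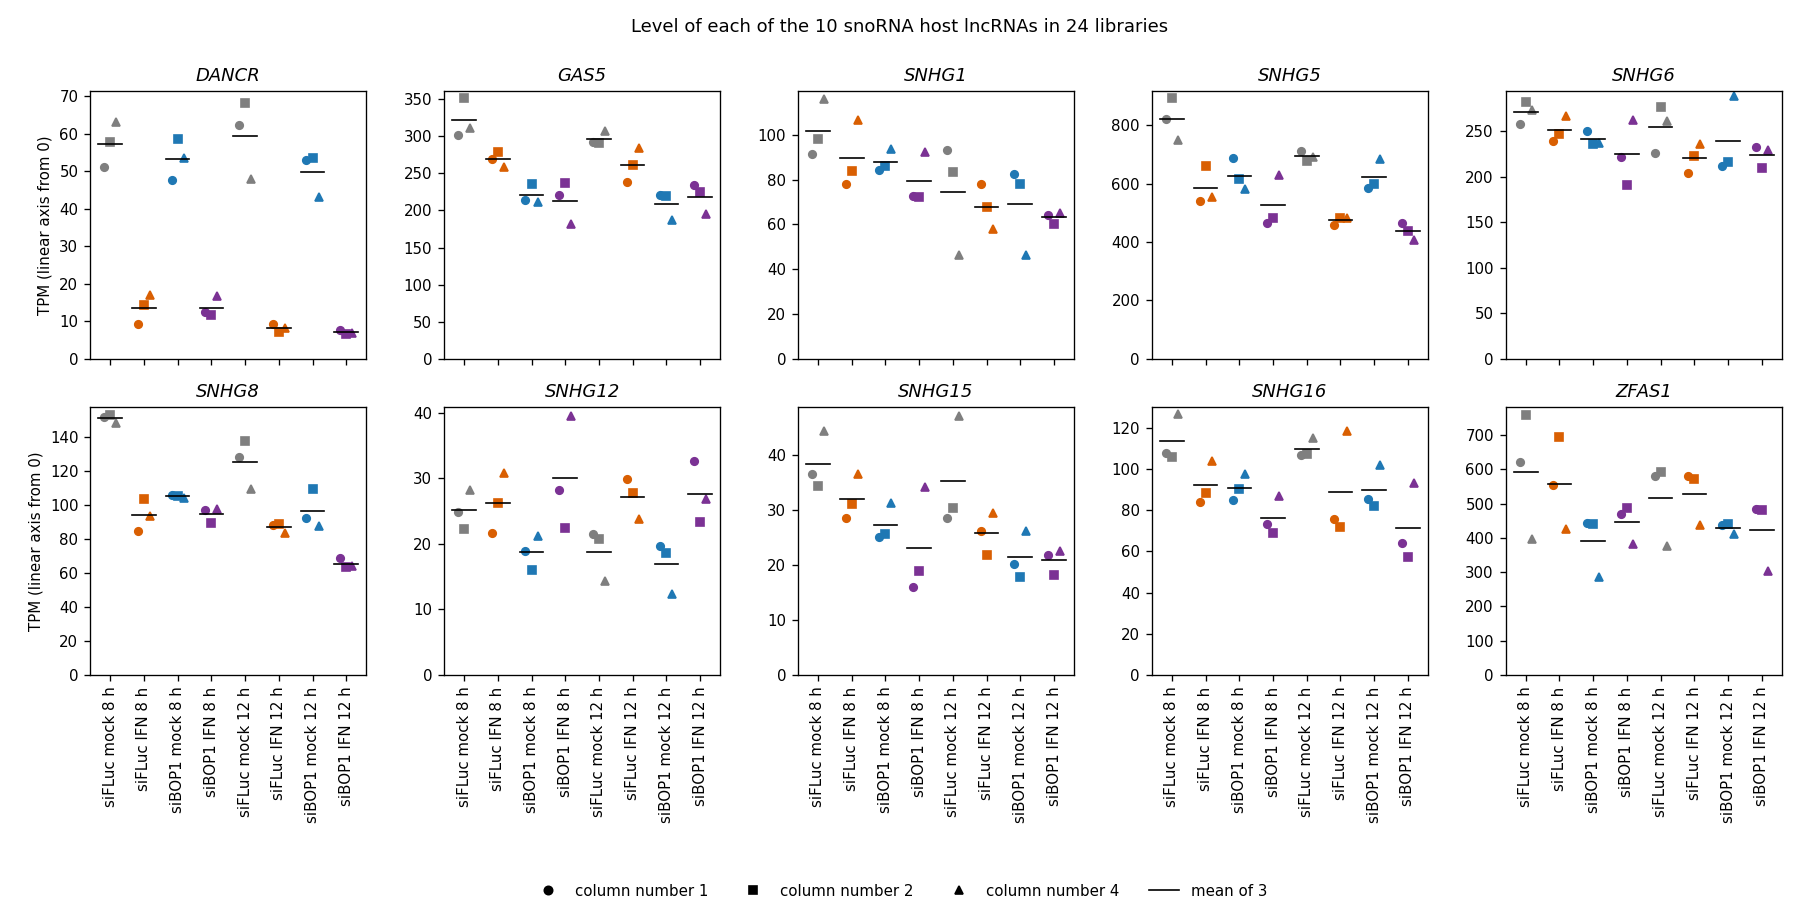
Level in TPM (linear axes from 0) of the 10 host lncRNAs in each library, by group; points are single libraries with the shape giving the column number, and lines are means of 3. DANCR splits into mock libraries at 43.3 TPM or above and IFN libraries at 17.1 TPM or below, while the other genes show smaller differences between groups.

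The host RNAs were measured, but not the snoRNAs they carry. GENCODE 29 places 22 snoRNA genes inside 9 of the members on the same strand, among them SNORA26 in DANCR, SNORA24 in SNHG8, SNORD50B in SNHG5 and the 3 SNORD1 genes in SNHG16, and none in GAS5. The RefSeq bounds of the 10 members hold 36 snoRNA genes, 11 of them in GAS5, the most of any member. Of the 11, SNORD79 alone was matched to a row, which was at 0 in all libraries. All 22 GENCODE snoRNA genes have a row in the table. Of these rows, 21 were at 0 in all 24 libraries, and SNORD12, in ZFAS1, was above 0 in 1 library with 8.52 TPM. The values below are thus those of the host gene rows and not of the snoRNAs. Whether these rows hold spliced RNA alone cannot be told, since the counting tool and annotation are not given.

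DANCR differed between mock and IFN libraries more than any other member. With siFLuc at 8 h, the mock libraries stood at 51.1, 58.0 and 63.2 TPM and the IFN libraries at 9.21, 14.4 and 17.1 TPM. At 12 h the mock values were 62.4, 68.3 and 48.0 TPM and the IFN values 9.32, 7.08 and 8.26 TPM. The groups did not overlap at either time, and the lowest mock library was over the highest IFN library by a wide margin. With siFLuc, every IFN library lay below every mock library for 18.9% (8 h) and 15.1% (12 h) of all genes.

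With siBOP1 the picture for DANCR was much the same. The mock libraries stood at 47.8, 58.7 and 53.7 TPM at 8 h and at 53.0, 53.6 and 43.3 TPM at 12 h. The IFN libraries stood at 12.5, 11.7 and 16.8 TPM at 8 h and at 7.83, 6.53 and 6.86 TPM at 12 h. With siBOP1, every IFN library lay below every mock library for 26.7% (8 h) and 19.2% (12 h) of all genes. In order of their means, the 4 mock groups (49.9 to 59.6 TPM) came first and each overlapped its neighbour, then a gap, then the 8 h IFN groups (13.7 and 13.6 TPM) and the 12 h IFN groups (8.22 and 7.07 TPM), which again overlapped their neighbours.

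As a share of the mock mean, DANCR under IFN was with siFLuc at 23.6% (8 h) and 13.8% (12 h), and with siBOP1 at 25.6% (8 h) and 14.2% (12 h). The differences on the log2(TPM + 1) scale, which understates changes of low genes, were -2.04, -2.71, -1.90 and -2.65, each with an SE of 0.18. All 12 differences between libraries of the same number were below 0, from -3.10 to -1.62. Among the 16062 genes ordered from the largest fall, DANCR was number 14, 8, 16 and 1 in these comparisons. Leaving out the 12 h libraries numbered 4, a step chosen after the data were seen, gave -2.86 with siFLuc and -2.735 with siBOP1 at 12 h.

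The estimated DANCR difference was larger at 12 h than at 8 h by 0.67 log2 units with siFLuc (95% interval of the 12 h minus 8 h difference -1.20 to -0.13) and by 0.75 with siBOP1 (-1.29 to -0.22). These intervals belong to DANCR alone and come from the values that chose it. Adjusted over all genes, neither value passed (adjusted p = 1.0 for each), and the IFN libraries of the 2 times overlapped with siFLuc. The siRNA by IFN interaction, which asks whether the IFN effect differs between siBOP1 and siFLuc, was 0.14 at 8 h (95% interval -0.40 to 0.67, adjusted p = 1.0) and 0.05 at 12 h (-0.48 to 0.59, adjusted p = 1.0) in the limma fit. A difference of up to 0.67 log2 units between the siRNAs is inside the first interval, so equal effects are not shown.

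**Figure D2:**
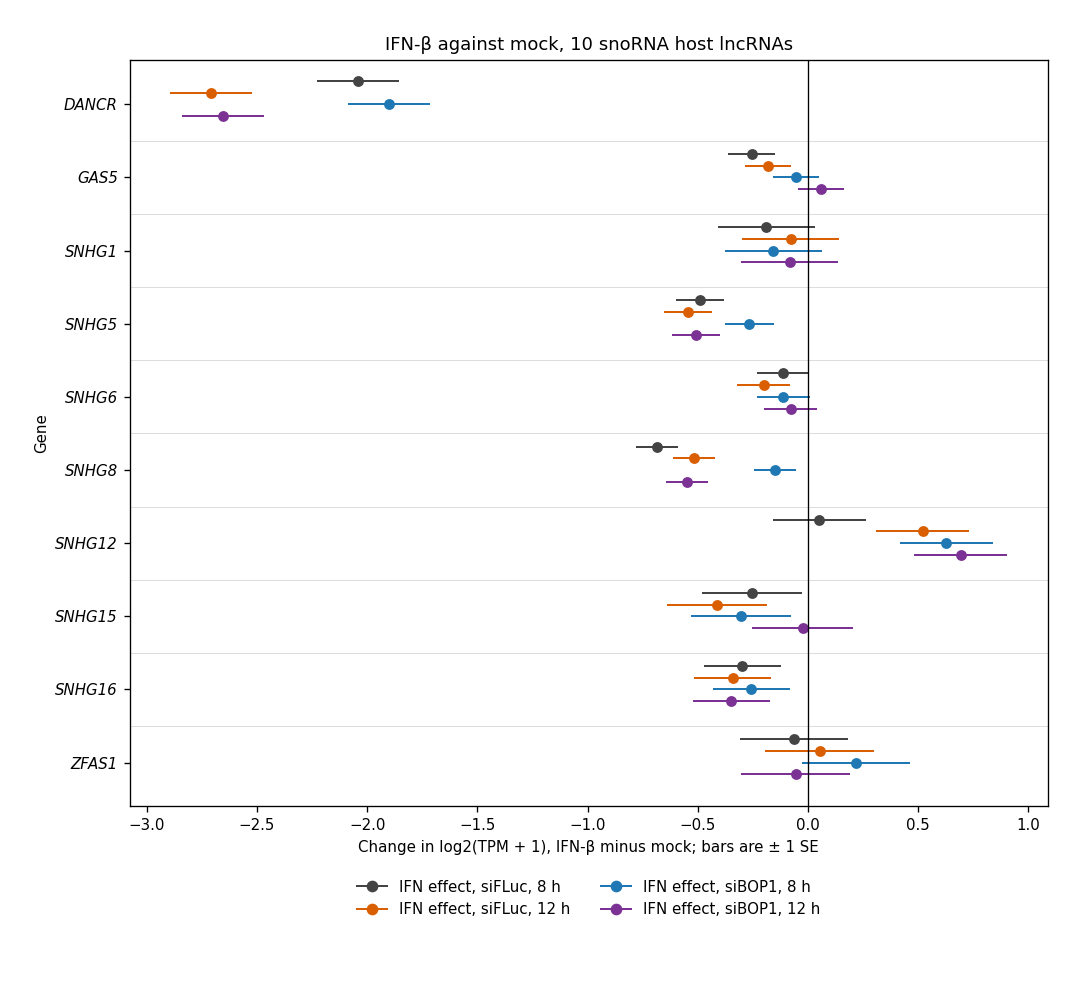
Difference in log2(TPM + 1) between IFN and mock for each host lncRNA, 1 point per siRNA and time with bars of 1 SE on either side, shown as a description without a test. DANCR lies between -2.71 and -1.90 in the 4 comparisons, and every other member lies between -0.69 and 0.69.

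The other 9 members differed far less between IFN and mock. SNHG8, the host of SNORA24, had the next largest difference with siFLuc at 8 h, while at 12 h that of SNHG5 was slightly larger. At 8 h its mock libraries stood at 152, 153 and 148 TPM and its IFN libraries at 85.0, 104 and 93.3 TPM, with no overlap, and the IFN mean was 62.1% of the mock mean. With siBOP1 at 8 h the mock libraries (106, 105 and 104 TPM) and the IFN libraries (97.1, 89.4 and 97.8 TPM) stood closer together, at 90.1%. The log2 differences of SNHG8 were -0.69, -0.52, -0.15 and -0.55 for siFLuc at 8 h and 12 h and then siBOP1 at 8 h and 12 h, with an SE of 0.09, and the value of -0.15 became 0.01 after median-of-ratios rescaling. All 12 same-number differences of SNHG8 were below 0.

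SNHG5, the most abundant member and the host of SNORD50B, showed a like pattern. Its siFLuc libraries stood at 820, 892 and 748 TPM in mock and 540, 660 and 553 TPM under IFN at 8 h, and at 713, 677 and 692 against 459, 484 and 484 TPM at 12 h, again without overlap. The siBOP1 libraries overlapped at 8 h, where the library numbered 4 stood at 629 TPM under IFN beside 467 and 481 TPM in the others, and did not overlap at 12 h. Its log2 differences were -0.49, -0.54, -0.27 and -0.51 (SE 0.11), and the siBOP1 8 h value was -0.40 without the IFN library numbered 4.

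SNHG12, which holds SNORD99 and several SNORA genes, was the member that stood higher under IFN. The siBOP1 libraries at 8 h were at 18.9, 16.01 and 21.2 TPM in mock and 28.2, 22.5 and 39.5 TPM under IFN, and those at 12 h at 19.7, 18.5 and 12.3 against 32.6, 23.3 and 26.8 TPM. These groups did not overlap, nor did the siFLuc groups at 12 h (21.4, 20.7 and 14.3 against 29.8, 27.8 and 23.7 TPM). At 8 h with siFLuc they did, with means of 25.1 and 26.2 TPM. Its log2 differences were 0.05, 0.52, 0.63 and 0.69 (SE 0.21). The value of 0.52 became 0.34 without the siFLuc mock 12 h library numbered 4, and 0.43 without all 12 h libraries numbered 4. That of 0.63 became 0.42 without the siBOP1 IFN 8 h library numbered 4, and that of 0.05 ranged from -0.07 to 0.18 with 1 library left out.

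GAS5 was at 83.5% and 88.2% of its mock mean under IFN with siFLuc at 8 h and 12 h, and at 96.8% and 104% with siBOP1. Its log2 differences were -0.26, -0.18, -0.05 and 0.06 (SE 0.10). SNHG16, SNHG15, SNHG1 and SNHG6 had differences between -0.41 and -0.03, and ZFAS1 between -0.06 and 0.22. With 1 library left out, those of SNHG15 ranged from -0.61 to 0.12, those of SNHG6 from -0.29 to 0.06 and those of ZFAS1 from -0.33 to 0.33. For SNHG16 at 12 h with siFLuc, the IFN library numbered 4 (118 TPM) stood above the other IFN libraries (75.5 and 72.0 TPM), and without it the difference went from -0.34 to -0.57. Without all 12 h libraries numbered 4 it was -0.53. For SNHG1 the siFLuc mock 12 h library numbered 4 (46.5 TPM beside 93.1 and 83.4 TPM) was low, and without it the difference went from -0.08 to -0.38. The siFLuc IFN 12 h library numbered 4 (57.7 TPM beside 78.1 and 67.9 TPM) was also the lowest of its group. Without all 12 h libraries numbered 4 the SNHG1 difference was -0.27.

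The counts of the whole-table fit follow as a description only. They rest on the values that chose the set, test nothing about it, and nothing is read from them. Members below 0 were 9, 8, 8 and 8 of 10 in the 4 comparisons, beside 64.4%, 57.9%, 69.1% and 59.9% of all genes. The cut applied to all genes, an adjusted p under 0.05, took in 3 of the 10 members downwards with siFLuc at 8 h (DANCR, SNHG5 and SNHG8), beside 5.07% of all genes, and none upwards, beside 5.77%. At 12 h the same count of 3 (again DANCR, SNHG5 and SNHG8) stood beside 6.43%, and none upwards beside 7.06%. With siBOP1 at 8 h it took in 1 downwards (DANCR, background 9.11%) and 1 upwards (SNHG12, background 5.99%), and at 12 h 3 downwards (DANCR, SNHG5 and SNHG8, background 7.58%) and 1 upwards (SNHG12, background 7.17%). The median log2 difference of the members was -0.26, -0.27, -0.15 and -0.08 in these comparisons, and that of all tested genes -0.09, -0.06, -0.14 and -0.08. Since TPM is a share, the scale matters: median-of-ratios rescaling moved the median of all genes in the siBOP1 8 h comparison from -0.14 to -0.005 and the members' median to 0.005. It raised the share of higher genes among the called from 53.2% to 69.1%, 52.4% to 63.0%, 39.7% to 65.6% and 48.6% to 62.4% in the 4 comparisons.

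ZFAS1 shares its start region with ZNFX1, an interferon-induced RNA helicase encoded on the opposite strand, whose start lies 248 bases away in GENCODE 29 and whose gene overlaps that of ZFAS1. ZNFX1 stood at 22.6, 19.5 and 18.3 TPM in siFLuc mock 8 h libraries and at 187, 157 and 133 TPM in siFLuc IFN 8 h libraries. It rose in all 4 IFN comparisons by 2.84 to 3.13 log2 units (SE 0.15), with adjusted p-values in the limma fit of 4.444e-12 at most. ZFAS1 itself stood at 621, 758 and 398 TPM in the former libraries and 554, 694 and 426 TPM in the latter, the IFN libraries lying inside the range of the mock libraries. Its IFN differences were -0.06, 0.05, 0.22 and -0.06 (SE 0.24). The kit marks strand, but how the authors counted strand is not given in the sources used here, so reads of the overlap may be shared between these genes.

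**Figure D3:**
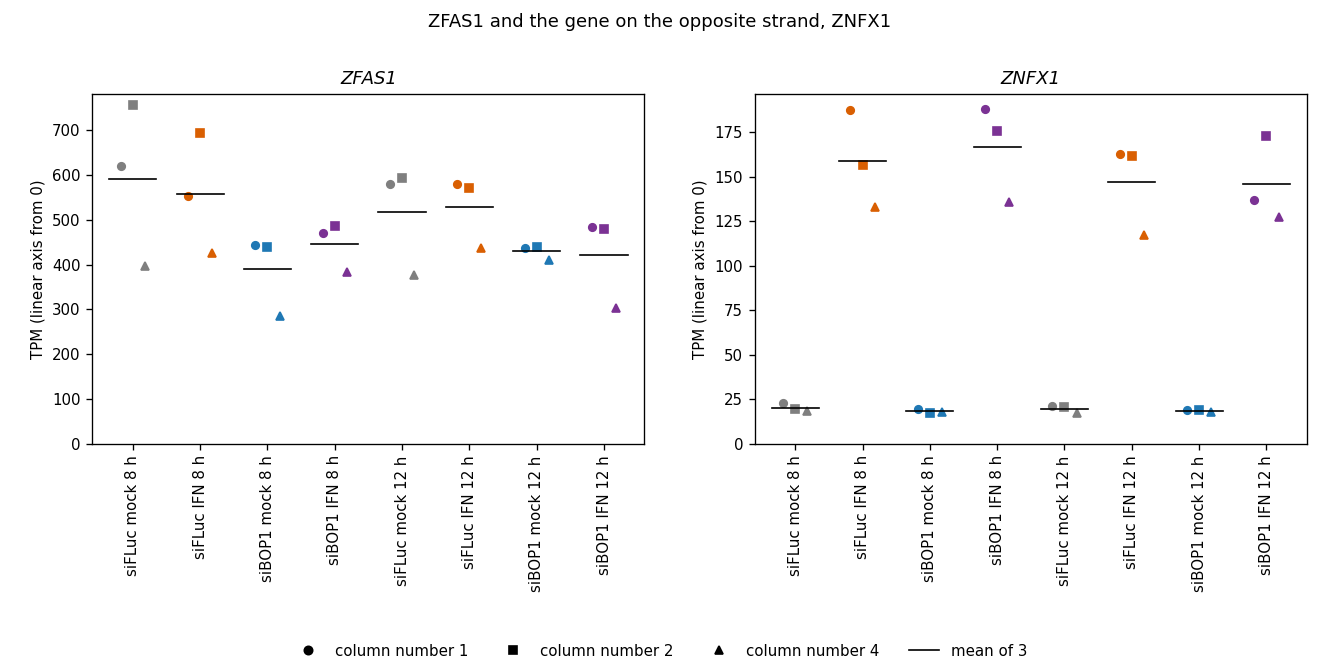
Level in TPM (linear axes from 0) of ZFAS1 and of ZNFX1 on the opposite strand in each library, by group, with lines for means of 3. ZNFX1 has means of 18.03 to 20.1 TPM in mock and 146 to 167 TPM in IFN groups, whereas the ZFAS1 libraries of mock and IFN groups overlap.

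The other neighbours on the opposite strand did not pass in any IFN comparison. SLC3A2, the heavy chain of amino acid transporters, starts 188 bases from SNHG1 and changed by -0.26 to -0.03, with adjusted p-values of 0.6577 and above. ZBTB37 starts 800 bases from GAS5 and was near the filter, with group means of 1.48 to 3.14 TPM. No protein-coding gene of GENCODE 29 starts within 5 kb on the other strand for the other 7 members.

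Among all tested genes, those most like DANCR over the 24 libraries by Pearson r of log2(TPM + 1) were GALNT11 (0.967), ACO1 (0.966), ATPSCKMT (0.962), ARPC1A (0.960) and EIF4B (0.958). All libraries share the IFN contrast that chose DANCR and 1 scaling, so these values are a description. ACO1, an aconitase that doubles as an iron-responsive RNA-binding protein, had group means of 51.3 (siFLuc mock 8 h), 22.1 (siFLuc IFN 8 h), 58.7 (siFLuc mock 12 h) and 12.2 TPM (siFLuc IFN 12 h). It fell by 1.18 log2 units at 8 h and by 2.17 at 12 h with siFLuc, and it was the only gene of 16062 to pass the time by IFN interaction there (-0.996, SE 0.148, adjusted p = 0.02205). That call rests on the scaling and on single libraries: 0 genes passed with median-of-ratios or quantile scaling, and 0 in 9 of the 12 fits that left out 1 library. EIF4B, a translation initiation factor that is itself encoded by a TOP mRNA, had means of 252, 145, 263 and 122 TPM in the same groups. GALNT11, a glycosyltransferase, and ARPC1A, a subunit of the actin-branching Arp2/3 complex, fell by 1.19 and by 0.75 log2 units at 8 h with siFLuc, and ATPSCKMT, a lysine methyltransferase, fell by 1.54.

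**Figure D4:**
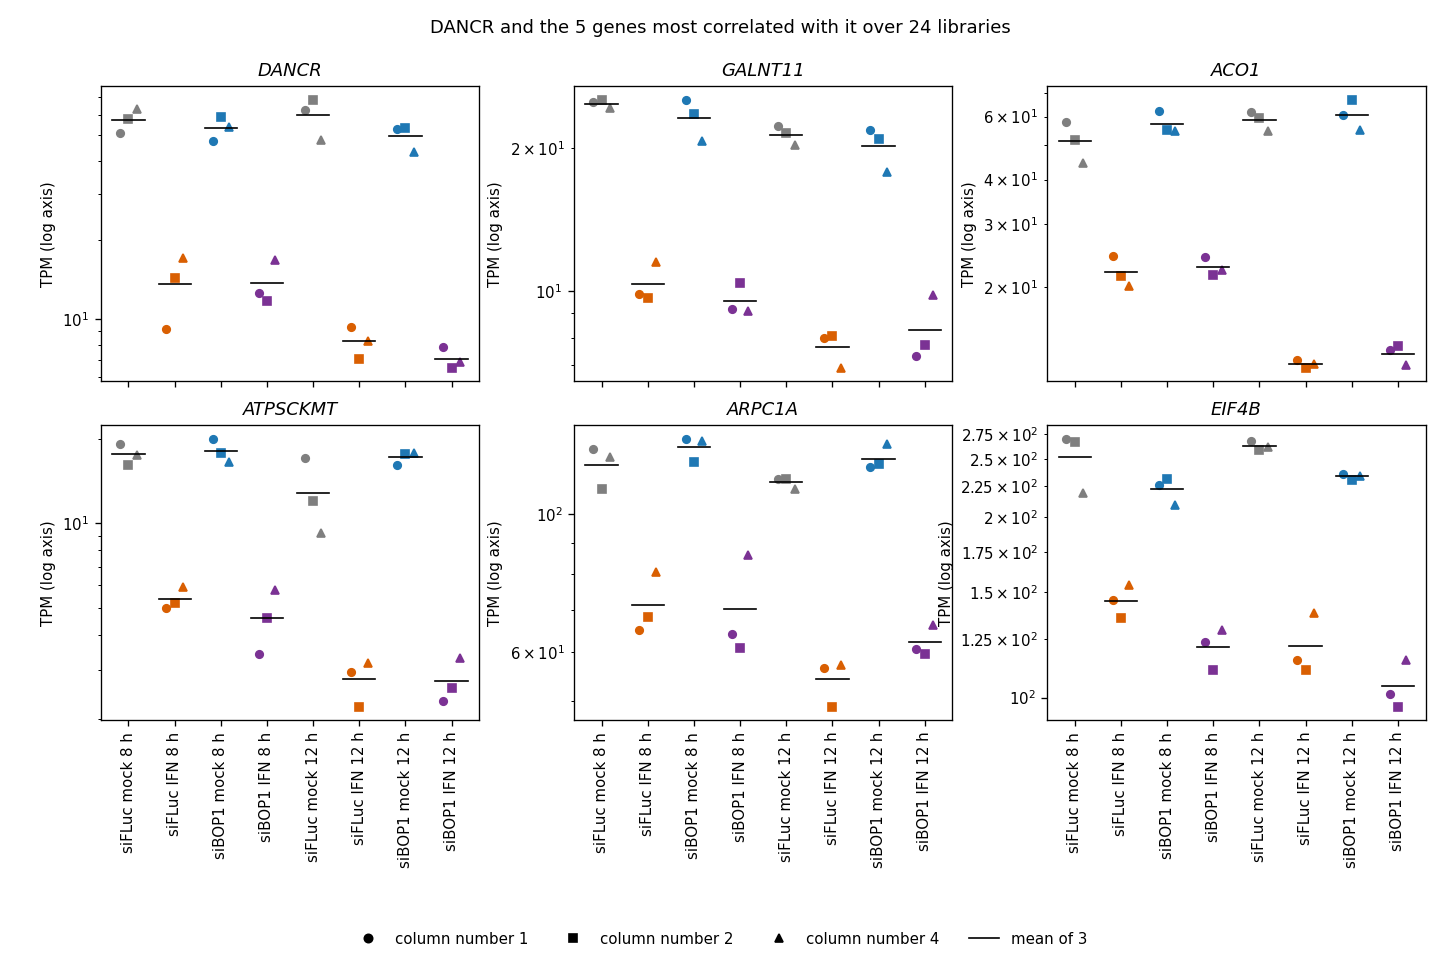
Level in TPM (log axes) of DANCR and the 5 genes with the highest Pearson r to it (0.958 to 0.967), in each library by group, with lines for means of 3. All 6 genes have mock libraries above IFN libraries.

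With BOP1 depleted, hosts of high and low level were lower and DANCR was not shown to differ. Averaged over the 4 combinations of treatment and time, 6 of the 10 members fell with siBOP1 against siFLuc: SNHG15 by 0.49 log2 units (SE 0.11, adjusted p = 0.003832), GAS5 by 0.41 (SE 0.05, adjusted p = 6.909e-06), ZFAS1 by 0.37 (SE 0.12, adjusted p = 0.04145), SNHG8 by 0.32 (SE 0.05, adjusted p = 4.617e-05), SNHG16 by 0.29 (SE 0.09, adjusted p = 0.02112) and SNHG5 by 0.21 (SE 0.05, adjusted p = 0.009). None rose. Of all 16062 tested genes 6.91% passed downwards and 10% upwards in this comparison. The median change was -0.25 for the members and -0.001 for all genes, and all 10 members were below 0 beside 50.1% of all genes.

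The call for ZFAS1 rests on the whole set of libraries: it was lost in 15 of the 24 fits that left out 1 library, with adjusted p-values from 0.0118 to 0.0812 over the 24. The other 5 kept their call in each of those fits. Without the 12 h libraries numbered 4 the count was again 6. Without a filter on low genes SNHG16 (adjusted p = 0.0519) and ZFAS1 (adjusted p = 0.106) no longer passed, and ZFAS1 was also lost with median-of-ratios rescaling (adjusted p = 0.066) and without the trend (adjusted p = 0.0547).

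GAS5 was lower with siBOP1 in mock and in IFN cells at both times, with a change past the threshold in mock cells only, as given below. In mock cells at 8 h the siFLuc libraries stood at 302, 352 and 312 TPM and the siBOP1 libraries at 214, 236 and 212 TPM. In mock cells at 12 h they stood at 292, 290 and 307 against 221, 219 and 187 TPM. Under IFN they stood at 270, 279 and 258 against 221, 237 and 182 TPM at 8 h, and at 238, 262 and 284 against 234, 225 and 195 TPM at 12 h. In all 4 comparisons every siBOP1 library was below every siFLuc library, and the siBOP1 mean was 68.4%, 70.6%, 79.3% and 83.4% of the siFLuc mean. Taken 1 comparison at a time, the same held for 7.7%, 7.55%, 9.92% and 5.61% of all genes.

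For GAS5 the change was -0.54 in mock at 8 h (adjusted p = 0.005219) and -0.50 in mock at 12 h (adjusted p = 0.01154). It was -0.34 under IFN at 8 h (adjusted p = 0.08465, or 0.0183 when the replicate number was blocked) and -0.26 under IFN at 12 h (adjusted p = 0.3634). At 12 h in mock the call was lost without the siBOP1 library numbered 4 (-0.43, adjusted p = 0.086) or without all 12 h libraries numbered 4 (-0.40, adjusted p = 0.0993), and under IFN at 8 h it was gained without the latter (adjusted p = 0.0322). The order of its 8 groups put the 4 siFLuc groups (262 to 322 TPM) above the 4 siBOP1 groups (209 to 220 TPM), and the 4 siBOP1 groups overlapped one another.

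SNHG8 was lower with siBOP1 in 3 of the 4 combinations. In mock cells at 8 h the siFLuc libraries (152, 153 and 148 TPM) and siBOP1 libraries (106, 105 and 104 TPM) were each tightly grouped, and the siRNA effect was -0.52 (SE 0.09, adjusted p = 0.003909). At 12 h the mock libraries stood at 129, 138 and 109 TPM against 92.6, 109 and 87.9 TPM, a difference of -0.37 (adjusted p = 0.04252). Under IFN at 12 h they stood at 88.2, 88.7 and 83.8 against 68.6, 63.7 and 64.3 TPM, a change of -0.40 (adjusted p = 0.0426).

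Under IFN at 8 h the SNHG8 libraries overlapped (85.0, 104 and 93.3 against 97.1, 89.4 and 97.8 TPM) and the change was 0.02 (95% interval -0.17 to 0.21). The 12 h calls of SNHG8 were narrow. In mock at 12 h the call was lost without either siFLuc library numbered 1 or 2 or either siBOP1 library numbered 1 or 4, with adjusted p-values from 0.0154 to 0.224 over the 6 fits. Under IFN at 12 h it was lost without any of the 6 libraries (0.0844 to 0.186). Without the 12 h libraries numbered 4, the adjusted p was 0.0607 in mock and 0.0846 under IFN.

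SNHG15, the host of SNORA9, had the largest averaged fall on a low level. Its siFLuc mock 8 h libraries stood at 36.6, 34.5 and 44.5 TPM and the siBOP1 mock 8 h libraries at 25.1, 25.6 and 31.3 TPM, without overlap. Its 4 changes were -0.48, -0.68, -0.53 and -0.29 in mock at 8 h and 12 h and then under IFN at 8 h and 12 h (SE 0.22), with adjusted p-values of 0.3619, 0.1599, 0.2769 and 0.829. When the replicate number was blocked, the first 3 passed (0.0319, 0.00513 and 0.0187). Under IFN at 8 h the siBOP1 library numbered 4 (34.2 TPM beside 16.1 and 18.9 TPM) stood apart, and without it the change was -0.84 (adjusted p = 0.0453).

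ZFAS1 and SNHG16 differed between column numbers as much as between siRNAs. The ZFAS1 siFLuc mock 8 h libraries stood at 621, 758 and 398 TPM and the siBOP1 ones at 443, 440 and 285 TPM, the libraries numbered 4 being the lowest of each group in all 8 groups. Its 4 changes were -0.58, -0.24, -0.30 and -0.35 (SE 0.24), none past the threshold (adjusted p from 0.2814 to 0.7831), and the first passed with the block (0.00322). In SNHG16 the libraries numbered 4 were the highest of each group. Its siFLuc mock 8 h libraries stood at 108, 106 and 127 TPM and its siBOP1 ones at 85.2, 90.2 and 97.6 TPM, and its 4 changes were within -0.31 and -0.27 (SE 0.17, adjusted p from 0.4865 to 0.6745), the first passing with the block (0.0489). All 12 same-number differences of SNHG16, SNHG15 and GAS5 were below 0, and 11 of 12 for ZFAS1.

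SNHG5 had its largest siRNA change in mock at 8 h, where the siBOP1 libraries (686, 614 and 583 TPM) lay below the siFLuc libraries (820, 892 and 748 TPM). That change was -0.38 (SE 0.11, adjusted p = 0.06308, and 0.0397 with the block). The other 3 lay between -0.16 and -0.12, with overlapping libraries.

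DANCR, SNHG1, SNHG6 and SNHG12 did not pass in the averaged comparison. The DANCR change was -0.12 (95% interval -0.31 to 0.07, adjusted p = 0.4026), that of SNHG1 -0.14 (-0.37 to 0.08), that of SNHG6 -0.10 (-0.22 to 0.02) and that of SNHG12 -0.10 (-0.31 to 0.12). The DANCR libraries of the 2 siRNAs overlapped in all 4 combinations, and 10 of its 12 same-number differences were below 0. Each interval allows a fall, the widest being that of SNHG1, so these genes are not shown to be unaffected.

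**Figure D5:**
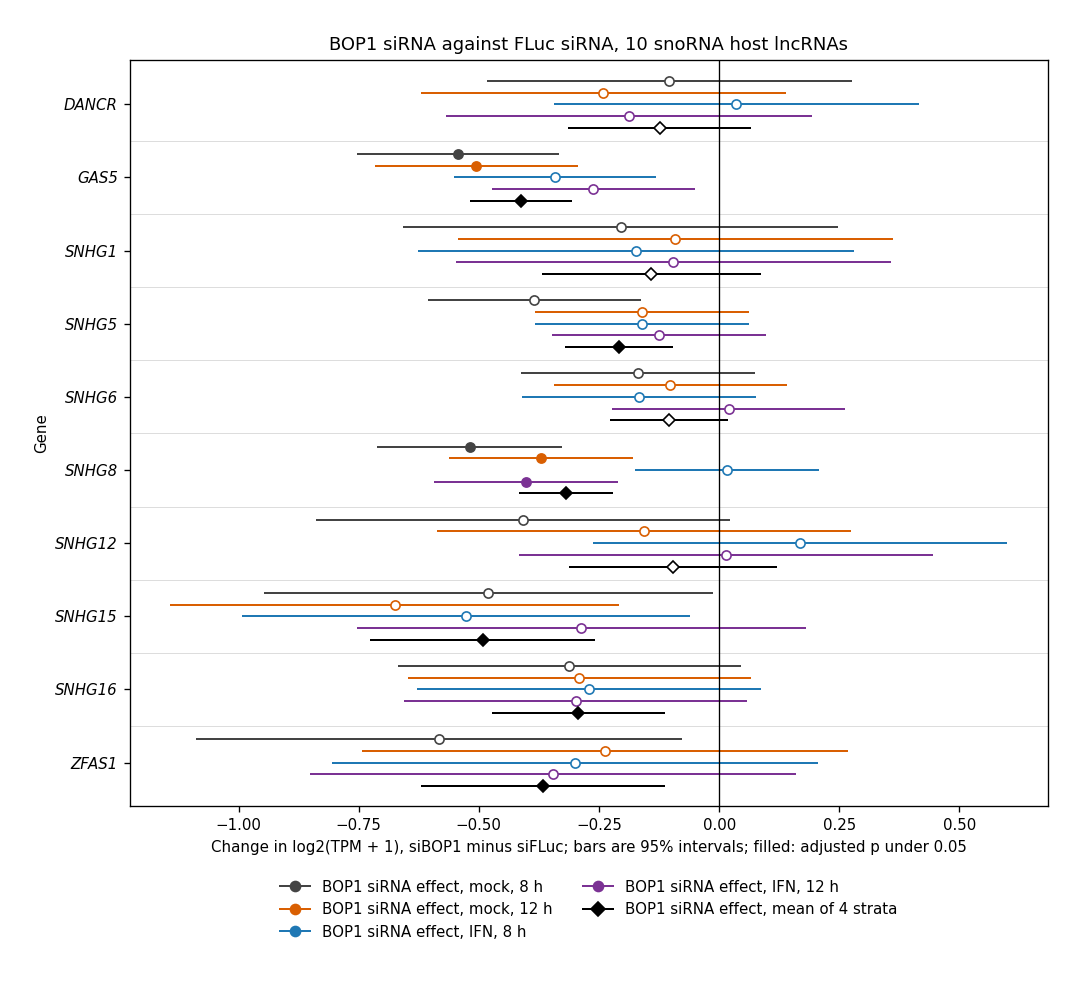
Difference in log2(TPM + 1) between siBOP1 and siFLuc for each host lncRNA in each combination of treatment and time and averaged over the 4 (diamonds), with 95% intervals. Filled symbols passed an adjusted p of 0.05: GAS5 and SNHG8 in mock at both times, SNHG8 under IFN at 12 h, and 6 genes in the average.

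By combination, the members called lower were GAS5 and SNHG8 in mock at 8 h and again in mock at 12 h, 0 under IFN at 8 h, and SNHG8 under IFN at 12 h, while 0 were called higher. In limma's fit 0.666%, 0.697%, 0.76% and 0.268% of all genes were called lower in these comparisons and 1.49%, 0.903%, 1.25% and 0.392% higher. At an unadjusted p under 0.05, 5, 3, 2 and 2 members passed, beside 2076, 2051, 2191 and 1444 of the 16062 genes. Blocking the replicate number gave lower counts of members of 6, 3, 2 and 1, and took the lower counts of all genes from 107, 112, 122 and 43 to 415, 538, 616 and 259. The members below 0 were 10, 10, 7 and 8 of 10, beside 44.3%, 49.2%, 52.1% and 52.4% of all genes. In mock at 8 h, every siBOP1 library lay below every siFLuc library for 7 members, beside 7.7% of all genes, and under IFN at 8 h for GAS5 alone, beside 9.92%. Median-of-ratios rescaling took the share of higher genes among all called in mock at 8 h from 69.2% to 57.3%.

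Mitochondrial genes held 12.8% to 13.6% of TPM in siFLuc mock 8 h libraries and 14.2% to 15.3% in siBOP1 mock 8 h libraries, and at 12 h in mock 6.86% to 15.01% and 12.1% to 15.9%, the lowest being the siFLuc library numbered 4. The epithelial marker sum was 6492 to 7220 TPM in siFLuc and 5729 to 6348 TPM in siBOP1 mock 8 h libraries, and 7915 to 7990 against 6069 to 6394 TPM in mock at 12 h. Under IFN it was 6789 to 7933 against 5974 to 6727 TPM at 8 h and 7621 to 8508 against 6256 to 6812 TPM at 12 h. In the averaged siRNA comparison 4 of the 6 epithelial markers were called lower and 1 higher. Their part in the changes of the host genes was not tested.

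Whether the siRNA altered the response to IFN was asked by the siRNA by IFN interaction, and whether time did by the time by IFN interaction. No member passed in any of the 4 interaction tests, with an adjusted p of 1.0 for each, and of all genes 0%, 0%, 0.00623% (the 1 gene ACO1) and 0% passed for siRNA by IFN at 8 h and 12 h and time by IFN with siFLuc and siBOP1. At an unadjusted p under 0.05 there were 1, 0, 1 and 2 members, beside 353, 259, 575 and 603 of the 16062 genes. The largest siRNA by IFN value of a member relative to its error was that of SNHG8 at 8 h (0.54, SE 0.13, 95% interval 0.27 to 0.80, adjusted p = 1.0), and SNHG12 had 0.58 (SE 0.29, -0.03 to 1.18) at 8 h. At 8 h, 9 of the 10 members were above 0, with a median of 0.17 beside -0.04 for all genes, and at 12 h 6 of 10 were, with 0.04 beside -0.01. Of all genes 59.6% were below 0 at 8 h and 52.3% at 12 h. The members' median at 8 h was 0.085 with numbers 1 and 2 only. Without the siBOP1 IFN 8 h library numbered 4 it was 0.04.

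Within groups, the members did not move as 1 block. After group means were removed, Pearson r of log2(TPM + 1) over the 24 libraries was 0.84 for SNHG1 with SNHG12 and 0.73 for DANCR with SNHG12, whereas it was -0.73 for SNHG16 with ZFAS1 and -0.67 for SNHG15 with ZFAS1. The libraries numbered 4 were the lowest of each group for ZFAS1 and the highest for SNHG16, but their part in these correlations was not measured. The values are a description.

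Other host lncRNAs were 17 listed genes, of which 16 were tested. This list and those that follow were chosen with earlier results of these data known, so their tests are not independent of that knowledge. Under IFN 16, 15, 14 and 14 of these were below 0, with siFLuc and then siBOP1 at 8 h and 12 h. The shares of all genes below 0 were 64.4%, 57.9%, 69.1% and 59.9%. Counts past the threshold were 5 lower and 0 higher with siFLuc at each time, 3 and 0 with siBOP1 at 8 h, and 4 and 0 with siBOP1 at 12 h, beside the backgrounds given above. SNHG9, SNHG7 and SNHG14 passed in all 4 comparisons. SNHG9 fell by 0.84 and 1.69 log2 units with siFLuc at 8 h and 12 h (SE 0.17, adjusted p = 0.001514 and 1.522e-07) and by 0.60 and 1.11 with siBOP1. SNHG7 fell by 0.54 to 0.79 (SE 0.10) and SNHG14 by 0.47 to 0.84 (SE 0.11). Medians over the 16 were -0.33, -0.54, -0.35 and -0.34. With the BOP1 siRNA averaged over the 4 combinations, 6 of the 16 were lower and 1 higher, and in single combinations SNHG29 alone passed, once, in mock at 8 h (-0.26, SE 0.07, adjusted p = 0.0434).

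Protein-coding snoRNA hosts, 31 genes of mostly translation and ribosome biogenesis, gave 1, 7, 0 and 5 lower and 2, 2, 2 and 2 higher under IFN, listed for siFLuc and then siBOP1 at 8 h and 12 h. For this and the next lists the shares of all genes called are those given above for each comparison. RNF149, a ubiquitin ligase, rose by 0.73 to 1.08 (SE 0.15) and CHD8, a chromatin remodeller, by 0.62 to 0.76 (SE 0.18) in all 4, and the chaperonin subunit TCP1 fell at 12 h by 0.54 and 0.50 (SE 0.12). With the BOP1 siRNA, 14 of the 31 were lower in the average and 0 higher, with a median of -0.18. EIF4G2, a translation initiation factor homologue, fell in all 4 combinations by 0.57 to 0.80 (SE 0.08). TOMM20, a mitochondrial import receptor, fell by 0.37 and 0.38 in mock at 8 h and 12 h (SE 0.09), and the helicase EIF4A2 fell by 0.51 in mock at 12 h (SE 0.12, adjusted p = 0.02877).

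The 18 factors of nonsense-mediated decay gave 1, 0, 1 and 1 lower and 1, 1, 0 and 1 higher under IFN. Of all genes 5.07%, 6.43%, 9.11% and 7.58% were called lower and 5.77%, 7.06%, 5.99% and 7.17% higher. The medians of the factors were 0.03, 0.11, 0.05 and 0.12, beside -0.09, -0.06, -0.14 and -0.08 for all genes. UPF3A, which can restrain the pathway, fell in 3 of the 4 comparisons, by 0.50 with siFLuc at 8 h and by 0.40 and 0.32 with siBOP1 (SE 0.10). SMG1, the kinase that activates UPF1, rose at 12 h by 0.66 with siFLuc and by 0.91 with siBOP1 (SE 0.20). In the averaged siRNA comparison 4 of the 18 were lower and 0 higher, and none passed in a single combination.

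Of the 17 proteins that make up or assemble snoRNA particles, 0, 1, 0 and 2 were lower and 0, 1, 0 and 0 higher under IFN, and 7 were lower and 0 higher with the BOP1 siRNA in the average. NOP56, NOP58 and DKC1 are in both this list and that of the protein-coding hosts, so the counts of the lists are not separate. Fibrillarin (FBL), the methyltransferase of box C/D particles, fell by 0.38 in mock at 12 h and by 0.33 under IFN at 8 h (SE 0.07, adjusted p = 0.009283 and 0.01764). RUVBL2, an assembly ATPase, fell by 0.37 and 0.35 in the same combinations (SE 0.09) and by 0.33 under IFN with siFLuc at 12 h. SHQ1 fell by 0.62 under IFN with siBOP1 at 12 h and RPAP3 rose by 0.43 with siFLuc at 12 h.

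On GRCh38 with GENCODE 29, DANCR spans chr4:52712404-52720351 on the plus strand and SNHG8 chr4:118278709-118279823 on the plus strand. GAS5 spans chr1:173863900-173868882 and SNHG12 chr1:28578538-28583132, each on the minus strand. SNHG1 spans chr11:62851988-62855914 (minus), SNHG5 chr6:85660950-85678748 (minus), SNHG15 chr7:44983023-44986961 (minus), SNHG16 chr17:76557766-76565348 (plus) and ZFAS1 chr20:49278178-49295738 (plus). The table's build is not given in the sources used here, and its row versions differ from GENCODE 29 for all members but SNHG6 and SNHG12.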

How the data were processed

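The authors' deposited table holds TPM values for 60609 rows and 24 columns. Aligner, counting tool, genome build and annotation are not given in the sources used here. Columns were matched to samples by their names: 16 by group and number, and 8, numbered 4, by group only. No column was left out. The filter kept genes that reached 1 TPM in 3 or more libraries. Their log2(TPM + 1) values were fitted by limma 3.58.1, run in R 4.3.3 (eBayes with trend, 1 mean per group, all 24 libraries), with Benjamini-Hochberg adjusted p-values over 16062 genes and a threshold of 0.05. The fit was tested on simulated data for the averaged siRNA comparison only. The simulated libraries were independent and held no shift by replicate number, so the effect of such a shift on the calls was not tested. TPM keeps no depth, so no counting interval can be given, and a rise of some genes lowers the share of others.

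The members and gene lists were chosen with earlier results of these data known. Named were all members, BOP1, IFIT1, the 5 genes most correlated with DANCR, protein-coding genes starting within 5 kb on the other strand, snoRNA rows inside members, and up to 3 genes per list and effect that were called in the most comparisons; 1 gene that the rule names is not reported here. Pairing comes from the column names: same-numbered libraries deviated together across genes (r 0.115 to 0.508 over 24 pairs), but for numbers 1 and 2 alone r was -0.012 to 0.156, over 0.1 in 3 of 8 comparisons. Alternatives were another pseudocount and filter, median-of-ratios and quantile scaling, no trend, only the groups compared, a replicate block, numbers 1 and 2 only, and leaving out libraries. Figures were drawn with matplotlib 3.10.9.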

Additional observations from a re-analysis of the deposited data

How the results depend on the processing

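The counts of members that fell with the BOP1 siRNA depended on the processing in single combinations of treatment and time, and the cause was not tested. In mock at 8 h the count of 2 became 1 when only the groups compared were fitted, 3 with quantile scaling and with a mean of at least 5 TPM, 4 with numbers 1 and 2 only, and 6 with the replicate block. In mock at 12 h the count of 2 became 1 without a filter, with median-of-ratios, with quantile scaling and without the trend, 0 with only the groups compared and without the 12 h libraries numbered 4, 3 with numbers 1 and 2 only and with the block, and 0 to 2 when 1 library was left out. Under IFN at 8 h the count of 0 became 2 with the block, 1 with numbers 1 and 2 only and without the 12 h libraries numbered 4, and 0 to 1 with 1 library left out. Under IFN at 12 h the count of 1 became 0 without a filter, with median-of-ratios, with quantile scaling, without the trend, with only the groups compared, with numbers 1 and 2 only and without the 12 h libraries numbered 4, and 0 in each leave-one-out fit. The averaged count of 6 lay between 4 and 7 under the alternatives run, and SNHG1 passed with numbers 1 and 2 only (adjusted p = 0.0151). Among the member results recomputed, the block changed no other call than those printed. The members' median IFN difference moved to 0.005 with siBOP1 at 8 h (median-of-ratios) and to -0.20 with siBOP1 at 12 h (quantile).

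Among the siRNA effects and interactions recomputed, directions turned for values near 0, namely the siRNA effect of SNHG8 under IFN at 8 h (-0.006 with quantile scaling, -0.009 with numbers 1 and 2 only, -0.053 to 0.088 with 1 library left out), DANCR there (-0.20 to 0.21), and the siRNA by IFN interaction of DANCR at 8 h (-0.097 to 0.32) and 12 h (-0.052 to 0.20). TPM gives no depth, 3 libraries a group limit the precision, and the alternative without the 12 h libraries numbered 4 was chosen after the data were seen.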
